A study of Xenopus tropicalis with 2 samples.

Results

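Lone peaks in the interior of the large chromosomes of Xenopus tropicalis were described, that is, occupied sites that stood by themselves in stretches with few other sites. A peak was taken as lone when it lay on chromosomes 1 to 8, began more than 5 Mb from the first and the last peak start of its chromosome, and had no other peak start within 30 kb. On chromosome 7 only starts above base 12000000 were used. These criteria read positions and no read numbers. They gave 1654 lone peaks, which is 2.33% of the 70984 interior peaks and 1.33% of the 124349 peaks of the whole set. Every peak with a position was 400 bp wide.

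In vertebrate genomes, occupied and accessible sites gather at promoters and in the enhancer groups of gene-rich regions. Gene-poor stretches hold fewer of them. The sites found there can be promoters of isolated genes or distal elements such as enhancers or boundary elements, which can act on genes far away. A frog tadpole tail is a mixture of tissues, with notochord, spinal cord, muscle and skin, so a profile of the whole tail is a sum over cell types. None of the peaks described here could be assigned to a gene, because the sources used here do not name the genome build of the deposited positions. Whether a lone peak is a promoter or a distal element was therefore not analysed here.

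The study profiled genome occupancy in tail tissue of wild-type tadpoles, labelled 0 hours post amputation (hpa), from animals reared at 23 °C in diluted Ringer's solution and amputated at NF stage 41, a stage of larval life. Its 2 libraries were both made from genomic DNA. The unsorted library came from cells labelled as having had no fluorescence-activated cell sorting (FACS), the sorted one from cells labelled as having had it. Cells had been freed from the tissue by Liberase, an enzyme blend. The labels name neither the assay within occupancy profiling nor a fluorescent population that was gated. Reads in peaks numbered 3176954 (unsorted) and 3111092 (sorted). Lone peaks took 24529 of the unsorted reads (0.772%) and 26007 of the sorted reads (0.836%). Each group had 1 library, so no difference between them could be set against a spread between animals or preparations, no test between conditions was possible, and all intervals below cover counting error only.

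Lone peaks were rare near the margins of the interior and became more frequent inwards. Between 5 and 10 Mb from the outermost peak of a chromosome, 27 of 8124 interior peaks were lone (0.332%). The share was 1.32% (165 of 12508) from 10 to 20 Mb and 2.59% (512 of 19792) from 20 to 40 Mb. From 40 to 60 Mb it was 3.27% (604 of 18449), and deeper than 60 Mb, which only the longer chromosomes reach, it was 2.86% (346 of 12111). Total peak density moved the other way, from 108 peaks per Mb in the outermost 5 Mb of the interior to 56.3 per Mb between 55 and 60 Mb, where lone peaks reached 2.23 per Mb. A sparser stretch leaves more peaks without a neighbour by the criterion itself, so these shares are a description of spacing.

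**Figure D1:**
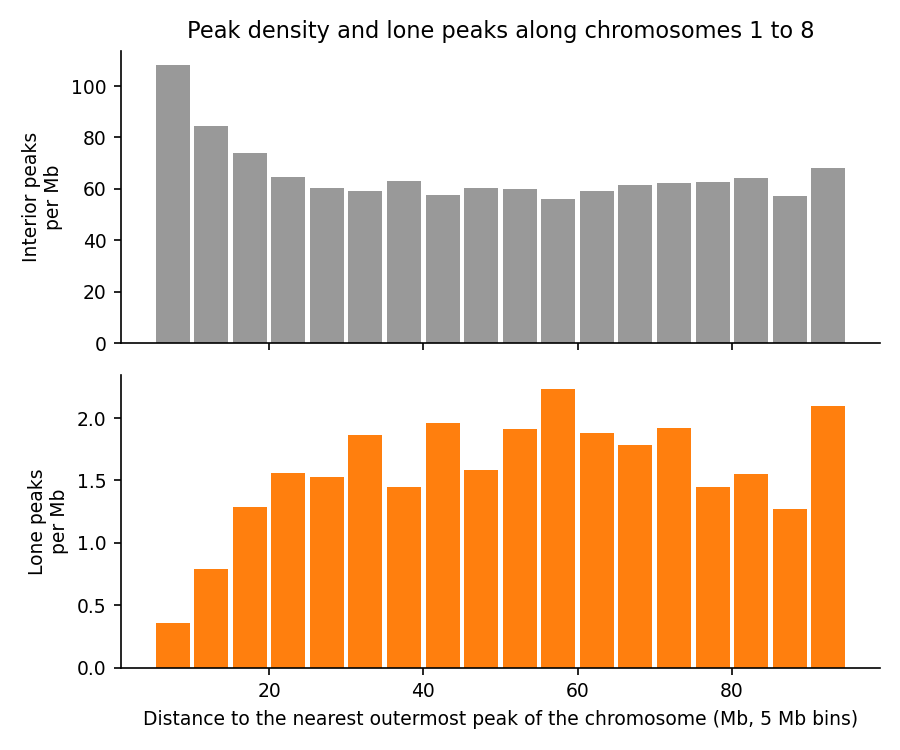
Bars give the number of interior peaks per Mb (upper panel) and of lone peaks per Mb (lower panel) in 5 Mb bins of distance to the nearest outermost peak of the chromosome, summed over chromosomes 1 to 8. Peak density falls from 108 to 64.5 per Mb between the first and the fourth bin, while lone peaks go from 0.36 to 1.56 per Mb and stay between 1.27 and 2.23 per Mb further in.

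Sparse surroundings reached well beyond the 30 kb that the criterion used. From 30 to 100 kb away, lone peaks had 5.75 other peaks per 100 kb, against 7.40 around the other interior peaks. From 100 to 200 kb the values were 5.94 and 7.22, and from 200 to 500 kb they were 6.03 and 7.13. The median lone peak had 54 other peaks within 500 kb, peaks with 1 to 2 neighbours within 30 kb had 58, those with 3 to 5 had 64 and those with 6 or more had 80. These counts include the inner 30 kb by which the classes were formed, so part of the gradient comes from the criterion itself. The nearest neighbour of a lone peak lay a median of 36.0 kb away, with a lowest value of 30.01 and a highest of 115 kb. For other interior peaks the median was 4.87 kb. The criterion itself puts these medians on either side of 30 kb, so their order is no finding about the surroundings.

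**Figure D2:**
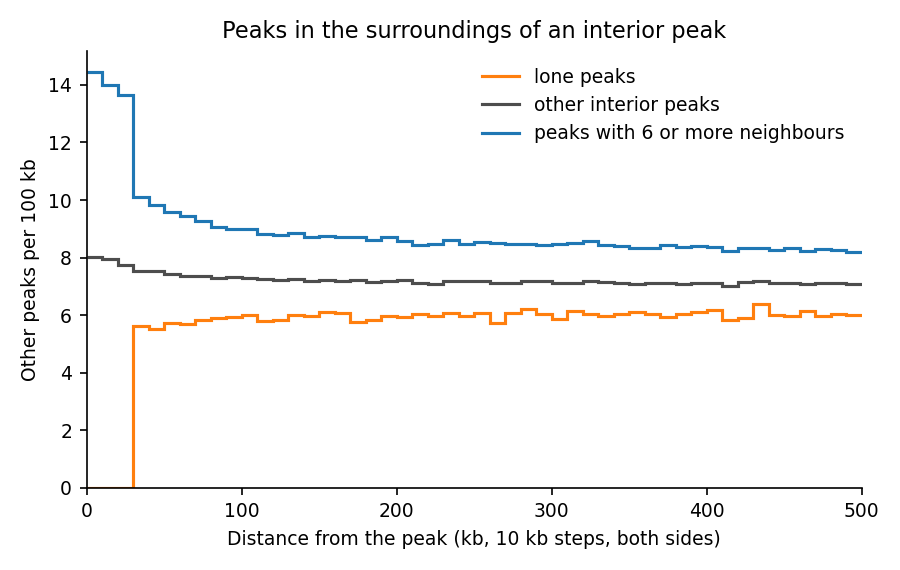
Lines give the number of other peaks per 100 kb, in 10 kb steps of distance on both sides, averaged over lone peaks (orange), other interior peaks (dark grey) and interior peaks with 6 or more neighbours within 30 kb (blue). Lone peaks are at 0 up to 30 kb by definition and stay near 6 out to 500 kb, below the other interior peaks near 7, so the 3 lines do not meet within the plotted range.

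The chromosomes differed in how many of their interior peaks were lone. Chromosome 7 had the highest share, with 187 of 6133 (3.05%), followed by chromosome 5 with 247 of 8780 (2.81%), chromosome 1 with 306 of 12270 (2.49%) and chromosome 4 with 202 of 8127 (2.49%). Chromosomes 3, 6 and 8 had between 2.00% and 2.04%, and chromosome 2 had the lowest share, 1.93% (210 of 10906). This order largely followed total density, and a sparser chromosome leaves more peaks without a neighbour by the criterion itself. The interior of chromosome 7 was the sparsest, with 61.2 peaks per Mb, and that of chromosome 8 the densest, with 69.8. Chromosome 2 had the lowest share at 68.1 peaks per Mb.

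Most gaps between interior peaks were short. Consecutive interior peaks were a median of 9.85 kb and a mean of 15.01 kb apart, and 99% of the gaps were shorter than 78.1 kb. Gaps over 30 kb made up 13.8% of all gaps but 44.1% of the length between interior peaks. A single gap reached 200 kb, while 29 did when only peaks with at least 20 reads were used. The single one lay on chromosome 3, from a peak beginning at 41406586 with 20 reads over both libraries to one beginning at 41643733 with 27 reads, and measured 237 kb. Gaps of at least 100 kb, a limit chosen after the values were seen, numbered 221 and covered 2.59% of the length. They were most frequent on chromosome 5, with 38 gaps (27.8 per 100 Mb), on chromosome 7 with 26 (25.9 per 100 Mb) and on chromosome 4 with 32 (25.9 per 100 Mb), and least frequent on chromosome 3, with 18 (14.1 per 100 Mb).

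The next longest gaps were bounded by weakly covered peaks. On chromosome 4, 198.9 kb separated the peak at 30970165, itself lone, from the peak at 31169067. On chromosome 8, 188 kb separated 40629559 from 40817665. Chromosome 5 held a gap of 184 kb between 48091937 and 48276431, both ends of which were lone, and another of 184 kb from 72351691 to the lone peak at 72536133. Of the 10 longest gaps, 4 were on chromosome 4 and 3 on chromosome 5, and the remaining 5 of the 10 measured between 172 and 177 kb. Of their 20 bounding peaks, 1 had more than 40 reads, the lone peak at 72536133 with 69 unsorted and 75 sorted reads. Among the 221 gaps of at least 100 kb, 130 had no lone peak at either end, 77 had 1 and 14 had 2. A long gap thus often ended at a pair or group of peaks, yet lone peaks were more frequent at these ends than their 2.33% share of interior peaks. The criterion itself places lone peaks there, since a peak beside a long gap already lacks a neighbour on that side.

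Most lone peaks had no other lone peak next to them, yet they followed each other more often than their 2.33% share of interior peaks. In the order along the chromosome, 1113 of them (67.3%) had a peak with company as the next peak on both sides. Directly following each other were 193 pairs (23.3% of lone peaks) and 34 triplets (6.17%), and 12 runs held 4 or more. Lone peaks in a row share an empty gap, so the criterion itself favours such runs. The longest runs had 6 lone peaks. One spanned 441 kb of chromosome 4, from 30183704 to 30624552, and its peaks had 27, 24, 20, 15, 22 and 20 reads over both libraries, in order. The other spanned 344 kb of chromosome 5, from 47979315 to 48323532, with 16, 19, 14, 15, 28 and 13 reads. Both runs thus consisted of thinly covered peaks. Scaled by library totals, the log2 ratio of sorted over unsorted reads was 0.12 (-0.40 to 0.64) in the run of chromosome 4. In that of chromosome 5 it was 0.67 (0.085 to 1.3), with 41 unsorted and 64 sorted reads. The only run of 5, on chromosome 7 from 62685134 to 62904228, had 31, 19, 19, 18 and 33 reads and a log2 ratio of -0.018 (-0.56 to 0.52). Of the 9 runs of 4, the longest lay on chromosome 3 from 18254737 to 18513419 and on chromosome 5 from 90072968 to 90325226. The second of these held a better covered peak with 35 unsorted and 46 sorted reads. The log2 ratios of these runs were -0.077 (-0.65 to 0.49) on chromosome 3 and 0.010 (-0.48 to 0.50) on chromosome 5.

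The sparsest part of the interior was on chromosome 4. Among the 1054 whole windows of 1 Mb in the interior, the median held 62 peaks, the richest 205 and the poorest, from 30000001 to 31000000 of chromosome 4, 19. That window also had the most lone peaks, 8. They began at 30065267 (9 unsorted and 7 sorted reads), 30183704 (10 and 17), 30281869 (14 and 10), 30342306 (13 and 7), 30412642 (5 and 10), 30464641 (10 and 12), 30624153 (10 and 10) and 30970165 (13 and 12). Among these lone peaks neither library was the higher one throughout: 4 of the 8 had more unsorted reads, 3 had more sorted reads and 1 had equal numbers. All 19 peaks of the window together held 192 unsorted and 229 sorted reads, a scaled log2 ratio of 0.28 (0.0014 to 0.57). The windows with 7 lone peaks lay on chromosome 3 from 18000001 and on chromosome 7 from 62000001 and from 78000001. Over all their peaks the scaled log2 ratios were 0.16 (-0.035 to 0.36), 0.28 (0.11 to 0.46) and 0.16 (-0.0053 to 0.32), in that order. At least 4 lone peaks were found in 104 windows, between 5.66% of the windows of chromosome 2 and 14.1% of those of chromosome 5, while 294 windows (27.9%) had none.

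Lone peaks were thinly covered, yet no more so than the peaks around them. Their reads summed over both libraries had a median of 24, with quartiles of 19 and 31, a lowest value of 9 and a highest of 4286. Per library the median was 12 unsorted and 12.5 sorted reads. The median was 25 for interior peaks with 1 to 2 neighbours, 26 with 3 to 5 and 31 with 6 or more. The peaks next to a lone peak on either side had a median of 24 reads, the same as the lone peaks. A lone peak had more reads than both of them in 520 cases (31.4%) and fewer than both in 535 (32.3%).

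The classes parted in the upper range of coverage. Of the lone peaks, 97 (5.86%) had at least 50 reads and 18 (1.09%) at least 100. Those shares were 7.25% and 1.34% with 1 to 2 neighbours, 9.78% and 1.87% with 3 to 5, and 23.1% and 7.32% with 6 or more. Under 20 reads lay 423 lone peaks (25.6%), against 13.4% of the peaks with 6 or more neighbours. Coverage also fell with distance from the chromosome ends, for lone peaks as for the others. The median of lone peaks was 27 reads from 5 to 10 Mb and 23 reads beyond 40 Mb, and that of other interior peaks 35 and 25. In windows with fewer than 45 peaks per Mb, lone peaks had a median of 22 reads and other peaks 23, while in windows with 80 or more peaks the medians were 27 and 32.

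**Figure D3:**
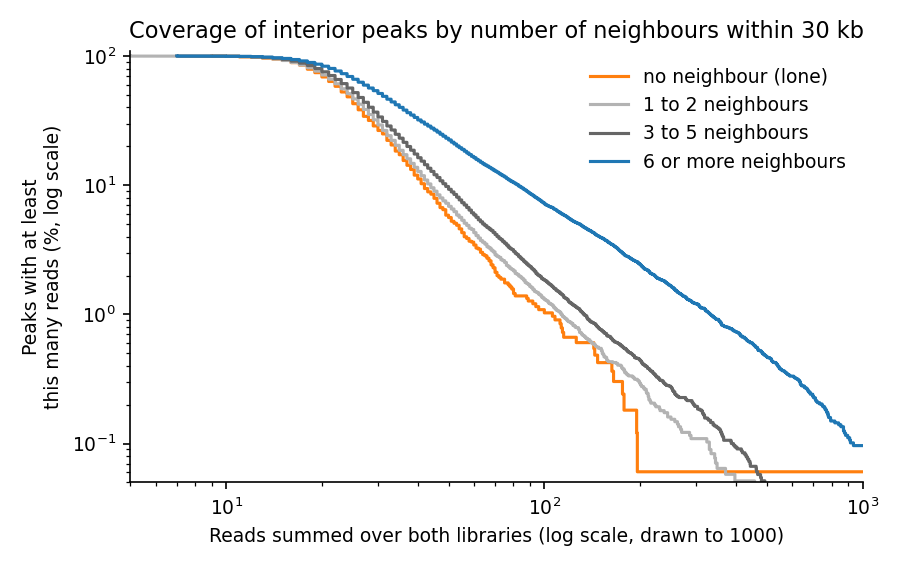
Lines give the percentage of peaks with at least the number of summed reads on the horizontal axis, both on log scales, for interior peaks with 0 (orange), 1 to 2 (light grey), 3 to 5 (dark grey) and 6 or more (blue) neighbours within 30 kb. At 100 reads the lone peaks are at 1.09% and the peaks with 6 or more neighbours at 7.32%; the flat end of the orange line is the single lone peak with 4286 reads, since the next has 196.

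Peaks on both sides of the 30 kb limit were alike in median coverage. The 714 lone peaks with a nearest neighbour 30 to 35 kb away and the 1298 peaks just outside the limit, at 25 to 30 kb, both had a median of 24 reads, and their log2 share ratios were 0.13 and 0.11. In the upper range they differed, with 5.60% of the former and 8.09% of the latter at 50 reads or more. Lone peaks at 60 kb or more, of which there were 79, also had a median of 24. At the 5 Mb margin, 6 of 1734 peaks just inside it and 7 of 1881 just outside it had no neighbour within 30 kb. Above base 12000000 of chromosome 7, the first Mb held 2 lone peaks among 77 peaks, and the Mb before it held 0 among 94.

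One lone peak stood apart from all others in coverage. It lay on chromosome 1 at 93548077 to 93548476, near the middle of the chromosome, and held 2133 reads of the unsorted library and 2153 of the sorted one. That is 671 and 692 CPM (reads scaled to a library total of 1000000). It ranked 13 among the 124349 peaks and 3 among the interior peaks, and held 8.70% (unsorted) and 8.28% (sorted) of the reads of all lone peaks. Its neighbours lay 58.8 and 31.7 kb away. The 14 other peaks within 100 kb had a median of 26 and a maximum of 43 reads, so none of them came near its coverage. Reads between peaks were not part of the counts. Of the 26 interior peaks with at least 1000 reads, 20 had 6 or more neighbours and this was the only lone one.

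The other well covered lone peaks were of another order. The next was on chromosome 4 at 34091455 to 34091854, with 99 reads in the unsorted library against 97 in the sorted one. Those on chromosome 6 at 10938728 to 10939127 had 103 and 92, on chromosome 5 at 91001377 to 91001776 had 90 and 88, and on chromosome 4 at 9568253 to 9568652 had 78 and 98. Next came chromosome 8 at 91636059 to 91636458 with 71 and 94 reads, chromosome 6 at 13168966 to 13169365 with 75 and 88, and chromosome 8 at 84019478 to 84019877 with 80 and 67. None of these 8 peaks differed between the libraries beyond its interval; the log2 ratios ranged from -0.22 to 0.43. The peak on chromosome 5 combined coverage with distance, since its neighbours were 74.3 and 102 kb away and the 3 other peaks within 100 kb had at most 26 reads.

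The 8 peaks farthest from any neighbour had between 11 and 39 summed reads, around the lone median of 24. The most remote was on chromosome 4 at 30970165 to 30970564, 115 kb from the nearest peak, with 13 unsorted and 12 sorted reads. A pair on chromosome 7, at 64861022 and 64964047, lay 103 kb from each other and at least as far from the next peaks on their other sides, with 7 and 6 reads in the first and 10 and 11 in the second. The next were on chromosome 3 at 18414430 (98.6 kb; 15 and 14 reads), chromosome 6 at 47810737 (98.2 kb; 14 and 14), chromosome 5 at 98613074 (90.9 kb; 4 and 7), chromosome 6 at 95339676 (90.01 kb; 14 and 25) and chromosome 7 at 93835166 (85.9 kb; 13 and 21). All 8 had intervals of the log2 ratio that included 0, and that of the most remote peak ran from -1.35 to 1.16, which holds a 2-fold difference in either direction.

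Together, lone peaks took a slightly larger share of the sorted library. The log2 share ratio, the log2 of their share of sorted reads over their share of unsorted reads, was 0.11 (95% interval 0.089 to 0.14), and the median lone peak had a log2 ratio of 0.13, with quartiles of -0.30 and 0.55. Of the 1654 lone peaks, 992 (59.98%) were above 0, against 58.9% of the other interior peaks. A peak with equal raw counts lies at 0.030 after scaling. The pooled value was 0.10 (0.094 to 0.11) for peaks with 1 to 2 neighbours, 0.12 (0.11 to 0.13) with 3 to 5, and 0.026 (0.021 to 0.032) with 6 or more. Lone peaks thus lay near the moderately spaced peaks, and the densely spaced ones stood lower. Scaling set the level: the lone peaks were at 0.084 with DESeq2 size factors, 0.048 with TMM factors, 0.059 with the reads of chromosome peaks alone as totals, and 0.27 with the 5000 most covered peaks as totals. The last of these moves every log2 ratio by 0.16.

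Set against other interior peaks of like coverage, lone peaks differed little, and by how much turned on a single peak. Within classes of summed reads, weighted by the reads of lone peaks, the log2 ratio of lone minus other interior peaks was 0.027 (0.0015 to 0.052). Without the peak of chromosome 1 with 4286 reads the difference was 0.0033 (-0.023 to 0.030). That peak was the only lone one with 400 reads or more, and its log2 ratio of 0.044 (-0.043 to 0.13) was set against -0.24 (-0.25 to -0.23) for the 191 other interior peaks of that class. This pooled value weights each of the 191 by its reads, which reached 28968, while the median of their log2 ratios was -0.074. The difference was not recomputed without the most covered comparison peaks. With comparison peaks from the same chromosome only, the difference was 0.00083 (-0.025 to 0.027). The mean log2 ratio per peak, in which each peak counts alike, gave -0.0052. For peaks alone within 50 kb the difference was -0.051 (-0.13 to 0.024), and with a margin of 10 Mb it was 0.021 (-0.0043 to 0.047). Some other settings gave intervals above 0. The difference was 0.12 (0.066 to 0.17) among peaks with at least 50 reads and 0.038 (0.013 to 0.064) against all other chromosome peaks. It was 0.033 (0.014 to 0.053) when all peaks under 20 reads were left out, and 0.023 (0.0084 to 0.038) for peaks alone within 20 kb. Without the most covered lone peak the first pair became 0.024 (-0.042 to 0.090) and 0.014 (-0.012 to 0.041), and the last pair 0.021 (0.0019 to 0.041) and 0.016 (0.00089 to 0.031). For the lone peaks as defined here, the interval from -0.023 to 0.030 leaves room for a difference of about 2% in either direction by counting error, and the spread between animals is unknown.

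Single coverage classes scattered around the comparison peaks. Lone peaks with 20 to 24 reads, the largest class with 431 peaks, had a log2 share ratio of 0.045 (-0.014 to 0.10), and other interior peaks had 0.11 (0.097 to 0.12). With 15 to 19 reads the order was the opposite, 0.14 (0.070 to 0.22) against 0.090 (0.077 to 0.10). With 30 to 39 reads the values were 0.18 (0.12 to 0.24) and 0.15 (0.15 to 0.16), and with 50 to 74 reads they were 0.092 (0.00032 to 0.18) and 0.095 (0.084 to 0.11). The widest distance under 200 reads was that of the class under 15 reads, with -0.050 (-0.23 to 0.12) for 86 lone peaks and 0.12 (0.091 to 0.15) for the others. The intervals of lone and other peaks overlapped in every class under 200 reads, which is not a test of equal ratios. With 20 to 24 reads the value of the other peaks lay above the interval of the lone ones. Compared with peaks with 6 or more neighbours at like coverage, lone peaks were higher by 0.054 (0.028 to 0.080), and by 0.036 (0.0087 to 0.064) without the peak of chromosome 1. Against peaks with 1 to 2 neighbours the difference without that peak was -0.031 (-0.059 to -0.0034), and against those with 3 to 5 it was -0.0058 (-0.033 to 0.021).

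**Figure D4:**
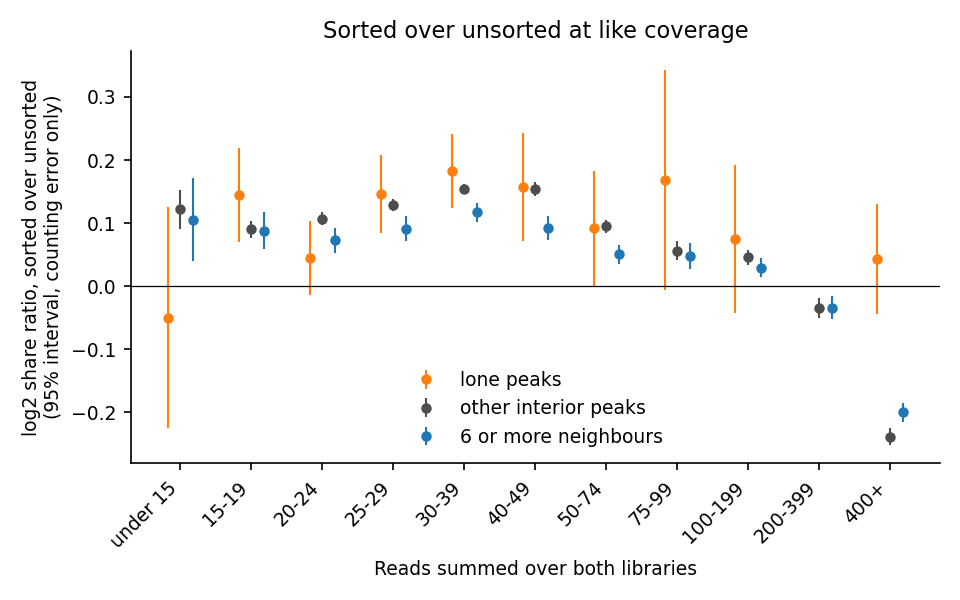
Points give the log2 share ratio (sorted over unsorted, scaled by total reads in peaks) in classes of summed reads for lone peaks (orange), other interior peaks (dark grey) and peaks with 6 or more neighbours (blue), with 95% intervals from counting error as bars. Lone peaks lie on both sides of the other interior peaks with overlapping intervals under 200 reads; the last class holds 1 lone peak, at 0.044, and no lone peak had 200 or more and under 400 reads.

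With remoteness the ratio of lone peaks took no steady course. By distance to the nearest neighbour, the log2 share ratio was 0.13 at 30 to 35 kb, 0.12 at 35 to 40 kb, 0.094 at 40 to 50 kb, -0.024 (-0.12 to 0.074) at 50 to 60 kb and 0.20 (0.077 to 0.31) at 60 kb and beyond. By distance from the chromosome ends it was 0.042 (-0.14 to 0.23) from 5 to 10 Mb, 0.066 (-0.0092 to 0.14) from 10 to 20 Mb, 0.13 (0.083 to 0.18) from 20 to 40 Mb, 0.12 (0.072 to 0.16) from 40 to 60 Mb and 0.12 (0.072 to 0.17) beyond 60 Mb. Other interior peaks had 0.012, 0.058, 0.11 and 0.12 in the first 4 zones, but 0.055 (0.047 to 0.064) beyond 60 Mb, where the intervals of lone and other peaks did not overlap. At like coverage, and without the most covered lone peak, the difference beyond 60 Mb was 0.019 (-0.042 to 0.080). In the first 4 zones it lay between -0.039 and 0.0014, each with an interval that included 0.

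By the density of the surrounding window, the difference at like coverage was widest in the richest windows, where it turned on a single peak. In the 70 windows with fewer than 45 peaks per Mb, 9.10% of peaks were lone. Lone peaks there had a log2 share ratio of 0.088 (0.016 to 0.16) and other interior peaks 0.11 (0.090 to 0.13). The difference at like coverage was -0.021 (-0.096 to 0.055). It was -0.027 (-0.066 to 0.012) in windows with 45 to 59 peaks and 0.0090 (-0.038 to 0.056) with 60 to 79. In the 181 windows with 80 or more peaks, where the 88 lone peaks made up 0.491%, lone peaks had a log2 share ratio of 0.092 (0.026 to 0.16) and other interior peaks 0.029 (0.023 to 0.035). The difference there at like coverage was 0.20 (0.14 to 0.27), and 0.078 (-0.026 to 0.18) without the most covered lone peak.

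Chromosomes with the highest and the lowest ratio were the same for lone and for other interior peaks. Chromosome 3 was highest in both, with 0.21 (0.13 to 0.29) for 175 lone peaks and 0.18 for the others, and chromosome 7 had 0.17 (0.090 to 0.25) and 0.17. Chromosome 8 was lowest in both, with 0.040 (-0.045 to 0.13) and 0.017. Chromosome 6 showed the widest distance, 0.16 (0.075 to 0.24) against 0.043, which shrank to 0.025 (-0.056 to 0.11) at like coverage. With all lone peaks, the widest difference at like coverage was that of chromosome 4, -0.053 (-0.13 to 0.023). On chromosomes 2, 5 and 8 the interval of the lone peaks included 0. With TMM factors the lone peaks of chromosome 5 (-0.0086) and chromosome 8 (-0.027) fell below 0, and with the reads of chromosome peaks as totals those of chromosome 8 did (-0.016). The order of chromosomes does not depend on the scaling.

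At the level of single peaks, lone peaks were called about as often as other peaks of their coverage. The call required 20 or more summed reads, a 2-fold or larger difference and a 95% interval clear of an equal level. Peaks that passed are named differing. The interval was taken peak by peak, without correction for the number of peaks, so counting error alone would also give some calls. Over the whole set the call was made for 5.19% of the peaks with enough reads, 3.53% higher and 1.65% lower in the sorted library. Among the 1231 lone peaks with at least 20 reads it was made for 76 (6.17%, Clopper-Pearson interval 4.89 to 7.67%), 59 higher (4.79%, 3.67 to 6.14%) and 17 lower (1.38%, 0.806 to 2.20%). Other interior peaks, weighted to the coverage classes of the lone ones, gave 6.02% in all, 4.42% higher and 1.59% lower, which would be 74.1, 54.4 and 19.6 of the 1231 peaks. By fold alone, without the interval, 132 of the lone peaks passed (10.7%), against 8.26% of the peaks of the whole set with enough reads. These 2 shares were not set to like coverage. With library totals 77.6% of the differing lone peaks were higher, and this share was 65.1% with TMM factors, 67.6% with totals of chromosome peaks, 88.6% with totals of the 5000 most covered peaks and 61.3% after a loess correction for coverage.

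The lone peaks that passed the call were thinly covered. Those higher in the sorted library had between 20 and 58 summed reads (median 30), with log2 ratios from 1.00 to 2.15, and those lower had 20 to 34 (median 25), with log2 ratios from -2.18 to -1.27. The lower bound of these sizes is set by the rule: at 24 reads a peak needs at least 18 of them in 1 library to count. A peak with 12 reads in each library has an interval from -1.25 to 1.31. By chromosome, higher lone peaks ranged from 2 of 132 on chromosome 6 (1.52%) to 12 of 134 on chromosome 7 (8.96%). The shares of other interior peaks were 4.22% and 5.41% on these chromosomes. The most extreme lone peak of all fell below the read minimum. It lay on chromosome 3 at 20130285 to 20130684 with a single unsorted read against 17 sorted ones (log2 ratio 3.57, 1.44 to 9.50), and was picked out after its values were seen.

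**Figure D5:**
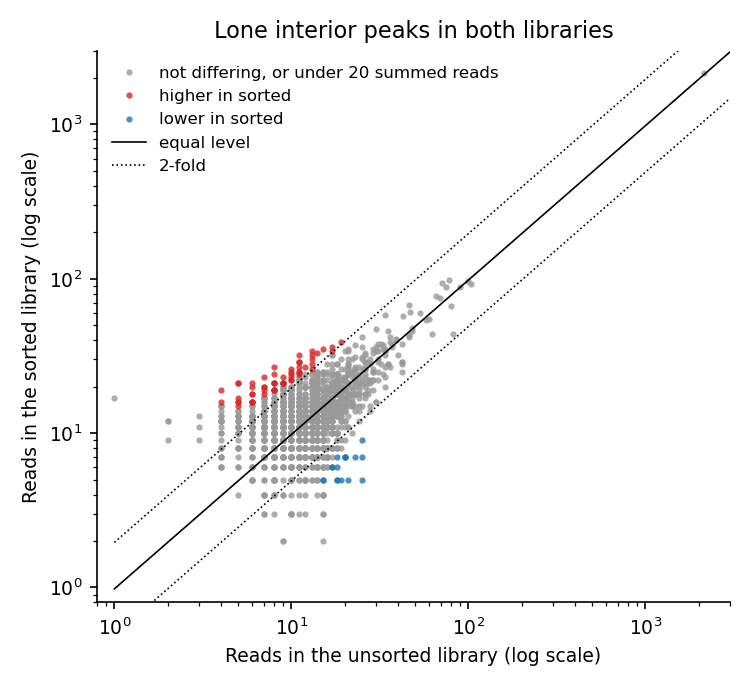
Each point is 1 of the 1654 lone peaks, with unsorted reads on the horizontal and sorted reads on the vertical axis, both log scales, with lines at an equal level and at 2-fold after scaling by total reads in peaks. The 59 higher (red) and 17 lower (blue) peaks all have fewer than 60 summed reads, the best covered peaks lie along the line of equal level, and the point at the upper right is the peak of chromosome 1 with 2133 and 2153 reads.

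Of the 97 lone peaks at 50 or more reads, the interval lay above 0 for 7 and below 0 for 1, and log2 ratios ran from -0.86 to 1.23. No such count of intervals stands beside it for other peaks, so it is not read as particular to lone peaks. Of the 97 peaks, 4 passed the rule, all higher in the sorted library (4.12%). In the whole set 2.42% of the peaks passed at that minimum, 1.44% higher and 0.976% lower. All 4 had 58 reads or fewer, and in the class of 50 to 74 reads 6.06% of the 66 lone peaks and 4.01% of the 5093 other interior peaks passed in either direction. The highest by the interval bound nearest to 0 was on chromosome 1 at 147547040 to 147547439, where 15 unsorted stood against 35 sorted reads (log2 ratio 1.23, 0.34 to 2.23), and the 5 other peaks within 100 kb had a pooled value of 0.42 (-0.079 to 0.92). The next, at 101140826 to 101141225 of chromosome 7, counted 17 and 36 reads (1.09, 0.24 to 2.04), and its 11 surrounding peaks stood at -0.18 (-0.47 to 0.12). At 24698537 to 24698936 of chromosome 3 there were 19 and 39 reads (1.05, 0.24 to 1.94), with surroundings at -0.43 (-0.997 to 0.13). The remaining one, at 107708114 to 107708513 of chromosome 5, counted 17 and 34 reads (1.01, 0.15 to 1.96). These 4 peaks thus gave no common picture of their surroundings. With TMM factors the peaks of chromosome 5 (0.94) and chromosome 3 (0.98) fell under 2-fold. The same 2 did so with chromosome totals and after the loess correction, and that of chromosome 5 also with DESeq2 size factors (0.98). With a prior count of 5 that of chromosome 7 (0.93) fell under 2-fold as well, and that of chromosome 1 did not (1.03).

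Better covered lone peaks on the higher side differed by less than 2-fold. At 20921213 to 20921612 of chromosome 3 the libraries held 34 and 58 reads (0.79, 0.17 to 1.46). It bordered a gap of 172 kb, and the 3 other peaks within 100 kb were also higher in the sorted library, with 34 and 73 reads together (1.13, 0.53 to 1.76). Chromosome 2 held 46 and 68 reads at 110559717 to 110560116 (0.59, 0.033 to 1.17), chromosome 8 held 25 and 42 at 77719753 to 77720152 (0.77, 0.031 to 1.55), and chromosome 6 held 30 and 47 at 111909074 to 111909473, with an interval that included 0. With TMM factors the intervals of the peaks of chromosome 2 (-0.034 to 1.10) and chromosome 8 (-0.036 to 1.49) also included 0, as they did with chromosome totals.

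On the lower side 1 of the 97 lone peaks with at least 50 reads had an interval below 0, uncorrected for their number. That peak lay on chromosome 4 at 97288703 to 97289102 and had 82 unsorted and 44 sorted reads. This was 1.82-fold fewer after scaling (log2 ratio -0.86, -1.43 to -0.32), while the 9 other peaks within 100 kb had 110 and 120 reads (0.16, -0.23 to 0.54). The next by the same ranking had intervals that included 0. They lay on chromosome 4 at 121507508 (42 and 25 reads), chromosome 1 at 77278940 (34 and 20), chromosome 7 at 14289705 (62 and 44), chromosome 3 at 68916939 (42 and 28), chromosome 8 at 25452617 and chromosome 1 at 65788739 (42 and 29 each). The peak of chromosome 1 with 4286 reads also came into this ranking, only because its interval was narrow. Of the other 25 interior peaks with at least 1000 reads, whose log2 ratios had a median of -0.10 and ran from -0.67 to 0.27, 19 lay below it.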

How the data were processed

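The authors deposited whole-number counts of reads over 1 merged peak set. The submitters' processing notes name featureCounts, MACS2, SAMtools, Bowtie, Bowtie2 and Trim Galore, without versions or order. Not given in the sources used here are the build, the libraries behind each peak call, and what was done with duplicate and multiply mapping reads. Mappability and assembly gaps along the stretches were not analysed here. The last peak of chromosome 1 ended at 194891458 and the gene table at hand (UCB_Xtro_10.0) reached 217419418, so no gene or sequence was assigned. Peaks without a position (548, holding 0.0924% of unsorted and 0.0899% of sorted reads) stayed in the totals.

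Libraries were scaled by their total reads in peaks. Log2 ratios of single peaks used a prior count of 0.5, and intervals were derived from an exact Clopper-Pearson interval of the sorted share of reads. Differences at like coverage were taken between pooled log2 ratios within 11 classes of summed reads, weighted by the reads of lone peaks, with a normal 95% interval from counting error. Distances ran from start to start. Intervals cover counting error only and take reads as independent. PCR duplicates, if they were kept, are not independent and would make the intervals too narrow. With 1 library per group no p-value was computed. At the median lone peak's 24 reads an equal split has an interval of -1.25 to 1.31.

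Named peaks were, among lone peaks, the 8 with the most reads, the 8 highest and 8 lowest by the interval bound nearest to 0 with at least 50 reads, and the 8 most remote, besides the 10 longest gaps and the 5 longest runs, ties going to the longer run. The members, lists and classes were chosen with earlier results of these data known. The scripts were tested on simulated data. Alternatives covered the distance, the margin, scaling by edgeR 4.0.16 and DESeq2 1.42.0 among others, thresholds and comparison peaks. Python 3.11.15, NumPy 2.4.6, pandas 2.3.3, SciPy 1.17.1 and R 4.3.3 were used.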

Additional observations from a re-analysis of the deposited data

How the results depend on the processing

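Leaving out the most covered lone peak, alone or with another setting, and the 100 kb gap limit were chosen after seeing the data. Of 55 values of the 6 main results under alternatives, 31 stayed within the interval or 1.5 times of the main value, 21 moved and 3 turned. The difference at like coverage (0.027) turned to -0.051 (-0.13 to 0.024) with lone peaks at 50 kb and to -0.0052 as a mean per peak. With the loess correction it was -0.011, taken as a plain mean over peaks without coverage classes, so correction and averaging changed together. It was 0.00083 against the same chromosome, 0.054 against peaks with 6 or more neighbours, 0.12 (0.066 to 0.17) at 50 reads or more and 0.0033 without the most covered lone peak, which gives the last class its weight. The share ratio of lone peaks was 0.065 at 50 kb, 0.084 with DESeq2 size factors, 0.048 with TMM factors, 0.059 with chromosome totals and 0.27 with totals of the 5000 most covered peaks; each scaling adds 1 constant. Lone peaks numbered 5300 at 20 kb, 202 at 50 kb and 2812 when peaks under 20 reads were left out, whose median was then 26 reads. Differing lone peaks numbered 249 at 20 kb, 13 at 50 kb, 4 with a minimum of 50 reads and 18 at 3-fold. They numbered 132 by fold alone, 22 with the 99% interval and 44 with a prior count of 5. All of these follow from looser or stricter rules. The 132 are 10.7% of the lone peaks with enough reads, against 8.26% of all such peaks, not set to like coverage. Gaps of 200 kb numbered 29 between peaks with at least 20 reads, and gaps of 100 kb 221. For the other changes the cause was not tested. Of 186 values of the 31 named peaks, 184 stayed within the main interval and no called value changed sign. The 2 outside it both belonged to the lone peak with 4286 reads, whose interval was the narrowest (-0.043 to 0.13). Each scaling moved every log2 ratio by a constant, between -0.067 and 0.16. The next best covered lone peak already had an interval from -0.42 to 0.42. For the scalings, staying inside thus follows from the width of the intervals and is no check of single peaks. No paired analysis was possible because there was 1 library in a group. Single peaks are limited by depth, since the median lone peak had 24 reads.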
